A study of Mus musculus with 4 samples.

Results

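The genes described here serve the visual cycle and the handling of retinoids: Rpe65, Rgr, Lrat, Rdh5, Rlbp1, Rrh, Rdh10, Stra6 and Ttr. They were taken as every probe set whose platform annotation names 1 of these 9 symbols and no other, which gave 14 probe sets among 45101 and 9 genes among the 18193 that had a probe set of their own. All 14 exceeded the filter on dim signals and were tested. The 4 one-colour arrays held total RNA from mouse eye tissue labelled retina. A pair of arrays came from control animals, and the labels make the second of them a technical replicate of the first, so they count as 1 control sample. The other pair came from transgenic animals whose aqueous humor, the fluid in front of the lens, contained myocilin, which is a glycoprotein secreted by cells of the eye, and nothing in the labels says whether these were separate animals. They were taken as 2 samples, and p-values then measure only the spread between these arrays, which may be technical. The labels pose the question of what myocilin around the retina does to it. The strain, age, sex and number of the animals, and the promoter that drove the transgene, are not given in the sources used here, and the transgene itself was not analysed here.

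The visual cycle returns light-bleached chromophore to its light-sensitive form. Photoreceptors hand all-trans-retinol to the retinal pigment epithelium, the pigmented layer behind them, where LRAT esterifies it, RPE65 isomerises the ester to 11-cis-retinol and RDH5 oxidises that to 11-cis-retinal, carried by the binding protein encoded by Rlbp1. RGR and peropsin, the product of Rrh, are opsins of the same layer, RDH10 is a further retinol dehydrogenase, STRA6 is the receptor that takes up retinol from its plasma carrier, and transthyretin, the product of Ttr, travels with that carrier and is also secreted by the pigment epithelium itself.

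Signals were linear, with a mean of 150 on every array after trimming 2% of probe sets at each end. The labelled tissue was not borne out by its markers. Of 16 rod photoreceptor genes 2 had a mean signal over 150 and of 9 cone genes 0 did, whereas all 5 corneal epithelium markers did, with summed signals between 37598.5 and 41499.9. The arrays are therefore called arrays labelled retina. In such bulk tissue fewer cells of a type and less RNA per cell cannot be told apart. Changes are differences of log2(signal + 16), transgenic minus control, a scale that understates changes of dim probe sets. Across the 27022 probe sets tested the median change was -0.02 and its SD was 0.26. Eif2s3y, a gene of the Y chromosome, read 370 and 364 in control and 160 and 154 in transgenic arrays. Its change was -1.15 (limma adjusted p = 0.0372). The part of the animals' sex in the changes below was not tested.

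Most of these genes had higher signals in the transgenic samples, with the isomerase gene and the opsin gene Rgr in front. For 8 of the 9 genes, each taken by its brightest probe set, both transgenic arrays lay above both control arrays, a pattern seen in 21.1% of all probe sets tested. The exception was Stra6. The share over all probe sets rose with signal, being 21.3% between 100 and 1000. It was 47.2% between 1000 and 5000, where Rdh5 and Rlbp1 lie, and 78.3% over 5000, where Ttr lies. The reverse pattern, seen in 23.6%, was found for none of the 9. The median change over the 9 genes was 0.49, and all 9 values were above 0, as were 46.9% of all changes, though that of Stra6 was below 0 without control array 1. Rpe65 and Rgr rose in limma at an adjusted p under 0.05, against 0.0777% of probe sets called in either direction and 0.0555% called higher. At an unadjusted p under 0.05 there were 8 of the 9 genes, all of them higher, where 4.14% of all probe sets were. The members were chosen with results of these arrays known, so these shares describe the genes and are no test of them as a group.

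**Figure D1:**
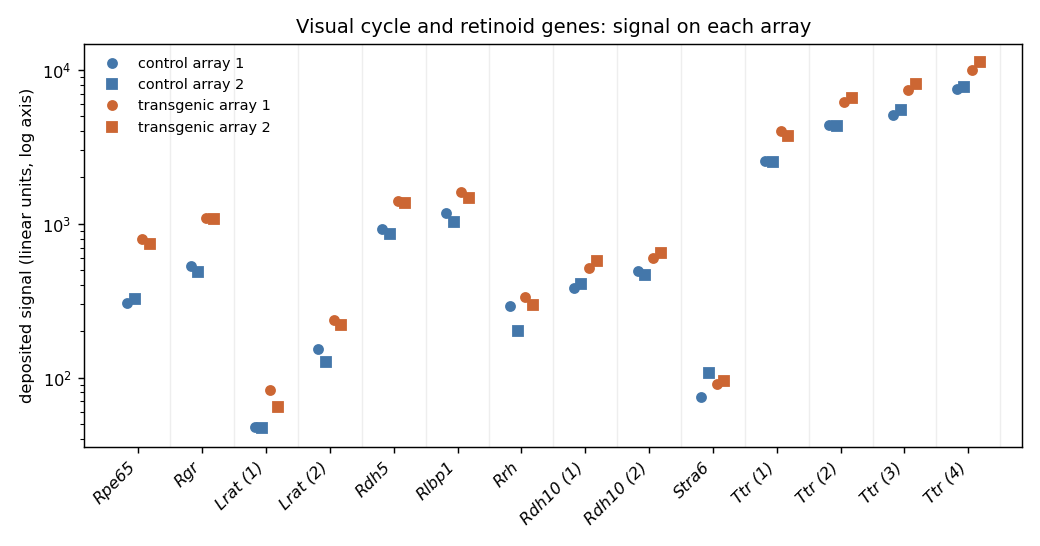
Deposited signal of each of the 14 probe sets on the 4 arrays, on a log axis, with control arrays in blue and transgenic arrays in orange; numbers in brackets separate the probe sets of 1 gene, ordered by control signal. Both orange marks lie above both blue marks for every probe set except that of Stra6, where they fall between the control arrays at 74.4 and 108.

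Rpe65, the isomerase that makes 11-cis-retinol, read 307 and 326 in control and 800.1 and 736 in transgenic arrays (probe set 1450197_at). The groups were far apart: the dimmer transgenic array was 2.26-fold above the brighter control array, and the widest pair stood 2.61-fold apart. The change was 1.24 ± 0.13 (log2, SE; limma adjusted p = 0.00581), the rank of its p being 4 among all probe sets tested. The difference between the 2 transgenic arrays, at -0.12 for array 2 minus array 1, and that between the control arrays, at 0.08, were small beside it.

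Rgr, the opsin that binds all-trans-retinal in the pigment epithelium and Mueller glia, read 528 and 485 in control and 1083 and 1068 in transgenic arrays (1422832_at). Every transgenic array was at least 2.02-fold above every control array. The change was 1.06 ± 0.12 (limma adjusted p = 0.00699), the rank of its p being 5. The calls of Rpe65 and Rgr ended without the filter on dim probe sets (adjusted p = 0.536 for each) and without the intensity trend in the moderation (0.905 for each), settings in which limma called no probe set at all, against 2181 and 1059 with an unadjusted p under 0.05.

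The enzymes before and after the isomerase were higher on both transgenic arrays and did not pass. Lrat, which makes the retinyl esters that RPE65 uses, had signals of 154 and 127 in control and 235 and 219.8 in transgenic arrays (1444487_at). That change stood at 0.64 ± 0.18 (log2, SE; limma adjusted p = 0.390). A second, dimmer Lrat probe set (1421345_at) read 47.9 and 46.7 in control and 82.5 and 63.98 in transgenic arrays, a change of 0.49 ± 0.29 (0.805), so both point the same way while their transgenic arrays disagree more at the lower level.

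Rdh5, the 11-cis-retinol dehydrogenase, read 919.8 and 864 in control and 1397 and 1368 in transgenic arrays (1418808_at). Its groups did not overlap, and the change stood at 0.62 ± 0.11 (limma adjusted p = 0.107). It passed after median centring (0.0212), with all 4 arrays as separate samples (0.0165) and without control array 1 (0.0386). Rdh10, a retinol dehydrogenase that also feeds retinoic acid synthesis, was measured by a pair of probe sets. The brighter one (1426968_a_at) read 496 and 467 in control and 596 and 648 in transgenic arrays, and the other (1460632_at) read 381 and 408 against 519 and 571. Their changes, 0.36 ± 0.13 (adjusted p = 0.579) and 0.45 ± 0.13 (0.442), differed by less than their SE.

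Among the binding protein and opsin genes, Rlbp1 stood clear of its control values, while Rrh did so narrowly. Rlbp1, which encodes the carrier of 11-cis-retinal in pigment epithelium and Mueller glia, read 1165 and 1019.9 in control and 1597 and 1479 in transgenic arrays (1418310_a_at). The lowest ratio between a transgenic and a control array was 1.27, and the change stood at 0.49 ± 0.11 (limma adjusted p = 0.259). Rrh read 289.6 and 200.1 on the control arrays against 332 and 295 on the transgenic arrays (1450280_a_at), so the closest pair differed 1.02-fold. The control technical replicates alone differed by -0.50 on the log2 scale, more than the change of 0.36 ± 0.16 (adjusted p = 0.685). That change was 0.61 without control array 1 and 0.11 without control array 2.

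The uptake side gave the lowest and the brightest members. Stra6, the retinol uptake receptor, read 74.4 and 108 in control and 90.3 and 95.5 in transgenic arrays (1422723_at). Its transgenic values lay inside the control range, with a change of 0.04 ± 0.24 (log2, SE; limma adjusted p = 0.994) that was -0.18 without control array 1 and 0.27 without control array 2. That SE is wide beside the changes of 0.36 seen for Rrh and Rdh10.

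Ttr, which encodes transthyretin, a carrier of thyroxine and partner of the plasma retinol carrier, was measured by 4 probe sets. The brightest (1454608_x_at) read 7533 and 7720.2 in control and 10019 and 11205 in transgenic arrays. The others read 5099 and 5518 against 7347 and 8125 (1455913_x_at), 4369 and 4294 against 6212 and 6518 (1459737_s_at), and 2571 and 2529 against 3990.2 and 3721 (1451580_a_at). All 4 agreed in direction and nearly in size, with changes of 0.47 ± 0.10, 0.54 ± 0.10, 0.55 ± 0.09 and 0.59 ± 0.10 in that order (limma adjusted p = 0.225, 0.140, 0.0910 and 0.0822). The suffixes x and s mark probe sets that can share sequence with other transcripts, and the 4 probe sets report 1 gene and are not replicates.

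Bright probe sets ran high in general on the transgenic arrays, and this touches Ttr most. Among the 276 tested probe sets with a mean signal over 5000, the median change was 0.20 and 91.3% were above 0. Between 1000 and 5000 the median was 0.07, and between 100 and 1000, where Rpe65, Rgr, Lrat, Rrh and Rdh10 lie, it was -0.02. After quantile normalization, which gives all arrays the same distribution of signals, the change of Ttr on its brightest probe set was 0.28 in place of 0.47. In the same setting that of Rlbp1 was 0.44, that of Rdh5 0.58, that of Rgr 1.05 and that of Rpe65 1.24. The part of brightness in the change of Ttr was not tested further. Array controls for poly-A transcripts, which come from no tissue, had a median change of 0.24 over 27 probe sets. Whether such transcripts were added to these samples was not checked.

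**Figure D2:**
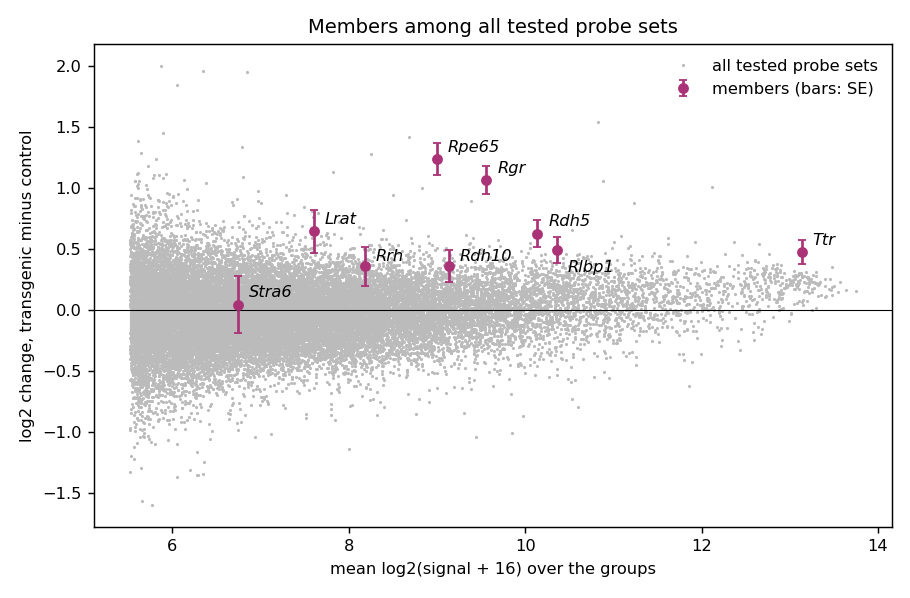
Log2 change (transgenic minus control) against the mean log2(signal + 16), for all 27022 tested probe sets in grey and the 9 members, by their brightest probe set, in purple with SE bars. Rpe65 at 1.24 and Rgr at 1.06 stand above the cloud, Stra6 at 0.04 lies in the cloud, and Ttr lies at the bright end, where most probe sets are above 0.

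The regions before the start sites of Rpe65, Rgr, Rdh5 and Rlbp1 are shown because these genes moved in the same direction. Other members that did so, among them Lrat and Ttr, are not shown. OTX2 and MITF are transcription factors of the pigment epithelium: OTX2 recognises a homeodomain core written TAATCC, and MITF binds E-boxes, among them CATGTG. Both words were searched on both strands of the 250 bases upstream of the annotated start, from RefSeq's promoter entries on GRCm38.p6. The sequences run 5′ to 3′ on the strand of the gene, and capitals mark a match to either word or its reverse complement (GGATTA or CACATG).
Rpe65, chr3:159598931-159599180, plus strand: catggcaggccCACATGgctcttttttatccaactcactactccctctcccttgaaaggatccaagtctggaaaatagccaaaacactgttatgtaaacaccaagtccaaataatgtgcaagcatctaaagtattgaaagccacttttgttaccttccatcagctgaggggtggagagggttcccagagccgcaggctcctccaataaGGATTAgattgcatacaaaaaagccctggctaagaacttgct
Rgr, chr14:37049015-37049264, minus strand: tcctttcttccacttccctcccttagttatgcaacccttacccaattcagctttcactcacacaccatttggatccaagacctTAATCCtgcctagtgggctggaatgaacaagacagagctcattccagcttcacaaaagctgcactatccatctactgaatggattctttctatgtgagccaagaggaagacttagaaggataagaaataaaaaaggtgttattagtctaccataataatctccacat
Rdh5, chr10:128919298-128919547, minus strand: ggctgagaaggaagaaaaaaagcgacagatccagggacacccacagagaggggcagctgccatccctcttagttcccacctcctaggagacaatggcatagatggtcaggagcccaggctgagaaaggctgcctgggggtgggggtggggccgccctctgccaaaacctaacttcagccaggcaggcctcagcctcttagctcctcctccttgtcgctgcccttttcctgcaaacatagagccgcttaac
Rlbp1, chr7:79387028-79387277, minus strand: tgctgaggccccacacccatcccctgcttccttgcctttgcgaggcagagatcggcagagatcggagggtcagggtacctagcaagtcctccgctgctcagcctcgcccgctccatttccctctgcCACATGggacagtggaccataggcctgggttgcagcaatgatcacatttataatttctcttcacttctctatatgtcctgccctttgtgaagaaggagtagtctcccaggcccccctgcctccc
The window of Rpe65 held both words, the homeodomain core 42 to 37 bases and the E-box 239 to 234 bases before the start. That of Rgr held the homeodomain core, 167 to 162 bases before the start, and that of Rlbp1 the E-box, 124 to 119 bases before it. That of Rdh5 held neither. Of 32851 such windows in the table, 6.25% held the homeodomain core and 12.3% the E-box. Across the 7 members searched, among them Lrat, Rrh and Stra6, with 10 windows in all, each word occurred in 2 genes, and Rdh10 and Ttr were not searched. The matches do not overlap, and a match describes letters, not a bound site. Otx2 itself read 380.0 and 404 in control and 407 and 387 in transgenic arrays, a change of 0.02 ± 0.14 (log2, SE). Mitf read 1287 and 1316 against 1364 and 1366, a change of 0.07 ± 0.11 (limma adjusted p = 0.995 for Otx2 and 0.961 for Mitf).

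Other genes of retinoid metabolism did not share the higher signals. Of 42 such genes with a probe set, 31 were tested and 0 passed in limma. At an unadjusted p under 0.05 there were 0 higher and 3 lower, where 2.92% of all probe sets were lower. The median change over the 42 was 0.03, with 22 above and 20 below 0, and their summed signal was 12823 and 12800.2 in control and 12801 and 12722 in transgenic arrays.

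The oxidoreductases and esterifying enzymes outside the 9 members, 16 genes of which 11 were tested, had a median change of 0.03. Rdh11, a retinal reductase, stood at 0.25, Rdh9 at 0.24 and Rdh14 at 0.20, with adjusted p between 0.811 and 0.913. Adh1, an alcohol dehydrogenase that can oxidise retinol and the brightest of the list, read 5021 and 5198 in control and 4784 and 5329 in transgenic arrays. Retinoid binding genes had a median of -0.10 over 6 genes, 4 of them tested. Rbp2, a cellular retinol-binding protein gene, read 443 and 547 against 339 and 367 (change -0.46, adjusted p = 0.452). Crabp2, which carries retinoic acid, stood at 0.20 and Rbp3, the carrier between photoreceptors and pigment epithelium, at -0.04.

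Retinoic acid synthesis and breakdown genes had a median of 0.16 over 7 genes, 5 of them tested. Aldh1a3, a retinal-oxidising enzyme, read 547 and 432 in control and 395 and 322 in transgenic arrays (change -0.43, adjusted p = 0.587), while Aldh1a2 stood at 0.17 and Aldh1a1 at 0.16. Cyp26a1, a retinoic acid hydroxylase, is added after its values were seen. It read 19.2 and 13.5 in control and 49.3 and 46.4 in transgenic arrays, and its mean lay under the filter, which corresponds to a signal of 30.0, so it was not tested. Among the retinoic acid and retinoid X receptors, with 6 genes of which 5 were tested and a median of 0.08, Rxra stood at -0.46 (adjusted p = 0.685), Rarb at 0.22 and Rara at 0.18. Of the carotenoid genes, 4 in number with a median of 0.11, the cleavage enzyme genes Bco2 and Bco1 stood at -0.53 and 0.12 and the uptake receptor Scarb1 at 0.12. On the photoreceptor side, Abca4, the flippase that clears retinal from discs, read 237 and 212 in control and 262 and 236 in transgenic arrays (change 0.14). Opsin gene Opn1sw stood at -0.24, and the median over 3 genes was -0.24. None of the genes named in these lists passed.

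**Figure D3:**
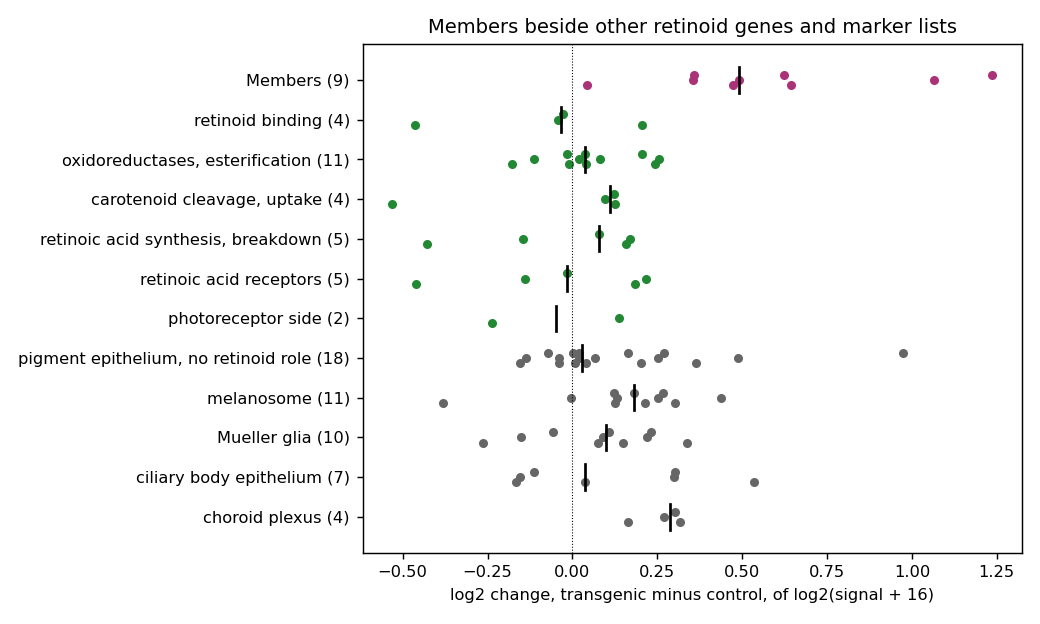
Log2 change of each tested gene, 1 point per gene, for the 9 members (purple), the other retinoid genes by role (green) and marker lists of candidate source cells (grey), with the median of the tested genes as a black bar and their number in brackets. Of the members 8 lie at 0.36 or above and Stra6 at 0.04, while the other retinoid genes spread around 0.

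Most pigment cell markers were bright on all arrays, and none passed. Of 19 pigment epithelium genes without a retinoid role, 14 had a mean signal over 150, the median change was 0.02 and none of the 18 tested passed in limma, with 3 higher and 0 lower at an unadjusted p under 0.05. Changes were above 0 for 14 of the 19 genes and below 0 for 5, where 46.9% of all changes were above 0. Both transgenic arrays lay above both control arrays for 7 of the 19 and below for 2, against 21.1% and 23.6% of all probe sets tested. The summed signal of the list was 13588 and 13331 in control and 14254 and 13774 in transgenic arrays. Best1, a defining chloride channel gene of this layer, was near the bottom of the signal range, at 5.02 and 8.78 in control and 2.85 and 11.7 in transgenic arrays. Kcnj13, its potassium channel gene, read 1176 and 1227 against 1456 and 1316, a change of 0.20. Efemp1, a matrix gene and the brightest of the list, stood at -0.15. The widest change of the list was that of Ermn, which read 68.0 and 79.7 in control and 165 and 156 in transgenic arrays (0.98 ± 0.21, limma adjusted p = 0.231), and the next was that of the lactate transporter gene Slc16a8 at 0.49.

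Melanosome genes, shared by the pigment epithelium, the iris, the ciliary body and choroidal melanocytes, exceeded 150 for 11 of 11. Both transgenic arrays lay above both control arrays for 8 of them and below for 1, the median change was 0.18, and none passed, with 4 higher and 1 lower at an unadjusted p under 0.05. Their summed signal was 33989 and 33952 in control and 37558 and 40732 in transgenic arrays, a ratio of 1.15 against 1.46 for the summed members. Dct and Pmel, melanin pathway genes among the brightest, stood at 0.21 and 0.18. The widest change of the melanosome list was that of Tyr, at 2357 and 2368 in control and 3271 and 3145 in transgenic arrays. It was 0.44 ± 0.10 (log2, SE; limma adjusted p = 0.259), close to those of Rlbp1 and Ttr, while Mlph stood at -0.38. Over all tested probe sets, both transgenic arrays lay above both control arrays for 21.3% at signals between 100 and 1000. That share was 47.2% between 1000 and 5000 and 78.3% over 5000. Dct, Pmel and Tyrp1 (change 0.13) lie over 5000, where the median change of all tested probe sets was 0.20. Higher signals of the melanosome genes are thus not set apart from those of bright probe sets in general. The part of the melanosome genes in the result was not tested.

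Set against the mean of the 11 melanosome genes on the same array, Rpe65 was 1.16 and 1.01 higher on the log2 scale on transgenic arrays 1 and 2 than in the control mean, and Rgr was 0.94 and 0.89 higher. Their control arrays lay 0.05 on either side of the control mean. Lrat stood at 0.49, Rdh5 at 0.47, Rlbp1 at 0.34 and Ttr at 0.32 on this relative scale. Rdh10 and Rrh stood at 0.21 each, and the transgenic values of Rrh then overlapped the control arrays, which lay at 0.24 and -0.24. Stra6 stood at -0.11. Against the 18 tested pigment epithelium genes without a retinoid role the relative change was 1.10 for Rpe65 and 0.93 for Rgr.

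**Figure D4:**
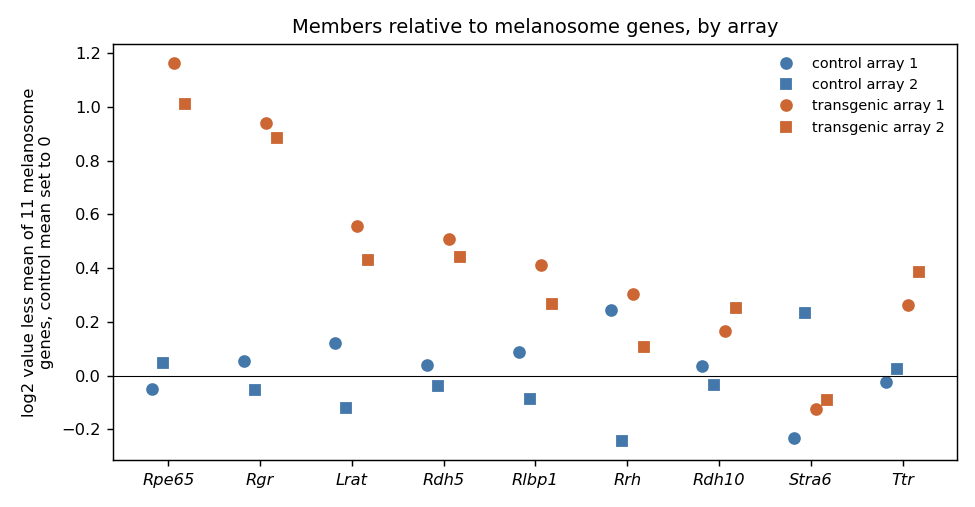
Log2 value of each member on each array less the mean log2 value of the 11 melanosome genes on that array, with the control mean of each gene set to 0; control arrays are blue and transgenic arrays orange. Rpe65 and Rgr lie between 0.89 and 1.16 on the transgenic arrays, and those of Rrh and Stra6 overlap the control arrays.

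Other cell types that express members were read from their markers. Mueller glia, which share Rlbp1 and Rgr, had a median change of 0.10 over 10 genes with 7 over a signal of 150, summed signals of 23284 and 22669 in control and 25727 and 25076 in transgenic arrays, and limma called none of them (3 higher and 0 lower at an unadjusted p under 0.05). Clu and Glul, the brightest of the Mueller glia list, stood at 0.15 and 0.09. Glul read 4588 and 4641 in control and 4845 and 4987 in transgenic arrays. Slc1a3 and Kcnj10, transporter and channel genes of these glia, were dim on all arrays, with at most 94.9 and 56.5. The choroid plexus list, relevant to Ttr, had a median of 0.22 over 6 genes, with none passed. Both transgenic arrays lay above both control arrays for 4 of these genes and below for 1, against 21.1% and 23.6% of all probe sets tested. The share above was 47.2% at signals between 1000 and 5000, where Folr1 and Aqp1 lie. Clic6, another of the 4, is also on the pigment epithelium list. Kl and Kcne2, both of the choroid plexus list, reached at most 24.7 and 42.8. Folr1 read 1359 and 1279 in control and 1501 and 1455 in transgenic arrays, and Slc4a5 read 592 and 489 against 715 and 637. The choroid plexus list had summed signals between 4350 and 4398 in control and between 5052 and 5371 in transgenic arrays. Ciliary body epithelium genes had a median of 0.04 over 7 genes, with Aqp1, a water channel gene also on the choroid plexus list, at 0.30. Their summed signals were 3490 and 3695 in control and 4413 and 4182 in transgenic arrays. Of the hepatocyte list, relevant because liver makes Ttr, 0 of 5 genes exceeded 150 and the sum of all 5 was between 45.1 and 78.0.

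The remaining marker lists, among them those of rods and cones, were read in the same way. Lens genes had a median change of 0.84 over 11 genes with 3 called higher. Those 3, Cryaa, Cryba1 and Crygb, had mean control signals of 13.6, 25.9 and 19.2, under the filter signal of 30.0. They were tested only because their transgenic signals were high, so their calls are no support. Of the 11 lens genes 1 had a mean signal over 150. It was Cryab, at 2378 and 2250 in control and 2819 and 2792 in transgenic arrays, most of the lens sum below. Skeletal muscle had a median change of 0.31 over 10 genes with 2 called, and stromal fibroblasts 0.28 over 7 with 1 called. Summed signals in control against transgenic arrays were 2566 and 2501 against 3481 and 3453 for lens, 11680 and 12243 against 16282 and 16575 for muscle, and 23091 and 21766 against 29172 and 29117 for fibroblasts. Choroidal melanocyte genes of neural crest origin stood at -0.32 over 5 genes. Among them Ednrb, the brightest, stood at 0.03, Mc1r at 0.12, Sox10 at -0.32, Erbb3 at -0.57 and Kit at -0.69. Vascular endothelium stood at 0.05 over 7, leukocytes at -0.02 over 5, corneal epithelium at 0.05 over 5 and erythroid genes at 0.72 over 3. Rod genes stood at 0.05 over 16 and cone genes at -0.31 over 9. How these tissues bear on the members was not tested.

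The probe sets most like Rpe65 and Rgr were found by the Euclidean distance between log2 values over the 4 arrays, each centred on its own mean. Nearest to Rpe65 were Sln, a muscle calcium pump regulator, at a distance of 0.13, Pon1, a paraoxonase gene, at 0.21, Ly6i at 0.22, Angpt1, an angiopoietin gene, at 0.23 and Rgr itself at 0.24. Sln read 179 and 182 in control and 453 and 468 in transgenic arrays. Nearest to Rgr were Angpt1 at 0.06, Myl1, a myosin light chain gene, at 0.07, Pon1 at 0.08, Mb, the myoglobin gene, at 0.10 and Tpm3, a tropomyosin gene, at 0.16. Angpt1 was dim, at 27.9 and 23.0 in control and 73.8 and 73.2 in transgenic arrays, and did not pass (limma adjusted p = 0.384). With 4 arrays such a likeness says little more than that these probe sets were higher by a similar amount on both transgenic arrays.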

How the data were processed

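The intensities deposited by the authors were linear, 1 per probe set and array, scaled to an equal trimmed mean on the 4 arrays. Neither labels nor headers name their software. The 64 array controls were removed. Names came from the platform annotation (34958 probe sets with 1 symbol, 932 with several, 9211 with none), and only single symbols were used. An update through gene identifiers changed 0 symbols. Intensities entered as log2(signal + 16). The 27022 probe sets whose mean exceeded the 40th percentile were fitted by limma 3.58.1 (R 4.3.3) with trended empirical Bayes moderation, and two-sided p-values were adjusted over all of them by Benjamini-Hochberg, with a threshold of 0.05. Control arrays were averaged as 1 sample against 2 transgenic samples. This left 1 residual degree of freedom beside 10.3 prior ones, so the control is taken to vary as the transgenic samples do. Precision is limited by the number of arrays. A gene with several probe sets was represented by the brightest. The model was also run on simulated data, with all 4 arrays drawn as independent and a spread taken from the transgenic pair. The control arrays here are technical replicates, so that run does not show how often these calls are wrong.

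The members and lists were chosen with earlier results of these data known. All members, the tested genes of each retinoid list with the largest change, the brightest markers and the 5 nearest patterns are named by rule. Other marker genes, Adh1, Cyp26a1, Eif2s3y, the values relative to pigment lists, the signal bins and the motifs were chosen after values were seen. Alternatives were quantile normalization, median centring, pseudocounts of 1 and 64, no filter or the 60th percentile, 4 separate arrays with or without a replicate block, untrended or robust moderation, leaving out each array, and averaging the probe sets of a gene.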

Additional observations from a re-analysis of the deposited data

How the results depend on the processing

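With 1 residual degree of freedom, the count of calls depended strongly on the model. The 21 probe sets past the threshold became 39 after quantile normalization, 56 after median centring, 135 with all 4 arrays as separate samples and 34 to 42 without a control array. They became 0 in limma without the filter or without the trend, where 2181 and 1059 had an unadjusted p under 0.05. The 2 members called became 4 after median centring and with 4 separate arrays (Rdh5 and Ttr added), 2 to 3 without a control array, and 0 without the filter or the trend. With the replicate block 1740 probe sets, 7 members and 2 other retinoid genes, Rbp2 and Aldh1a3, were called. The labels do not say that the numbers pair the arrays, and the differences of array 1 minus 2 in the control and transgenic groups had a correlation of 0.096 across probe sets, so the block is given as a count alone. The median change of the members was 0.44 after quantile normalization, 0.52 after median centring, 0.47 at a pseudocount of 64, 0.54 as the mean over probe sets and 0.49 to 0.61 without 1 array. Leaving out a transgenic array left no test. In 15 of 15 settings the changes of Rpe65 (1.13 to 1.30) and Rgr (1.00 to 1.12) were above 0, as were those of the other members except Stra6, which was below 0 in 1. Settings of the filter, the grouping of the 4 arrays and the moderation cannot alter these values, so their agreement was fixed in advance. Averaging probe sets likewise cannot alter a gene with 1 probe set, such as Rpe65 or Rgr. The table used here carries no detection calls, so how far the dim Lrat and Stra6 signals lie above background is unknown.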
